A study of Mus musculus with 12 samples.

Results

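The unfolded protein response and the chaperones of the endoplasmic reticulum (ER) were examined here as a set of 38 genes. The cells were RAW264.7, a macrophage-like line of the mouse. The set was chosen by name: 4 stress sensors and transcription factors, 11 Hsp70 and Hsp90 chaperones and their cofactors, 7 lectin chaperones and disulfide enzymes, 10 genes of ER-associated degradation, and 6 genes of the translocon, of COPII vesicles and of UFM1. Earlier results of these data were known at that choice, so counts of members set beside all genes are not independent of it. The array named 30481 genes in all, and 36 of the 38 had a probe set of their own. Manf and Pdia4 shared theirs with another gene and were given no value. Of the 36, 35 passed the filter on dim genes, which asked that a gene exceed the median of all probe sets in at least 3 arrays. Derl3 did not pass, with 4.71 to 4.99 on the log2 scale over all 12 arrays.

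RNA from cells kept for 24 h in their medium was measured on 12 Affymetrix arrays, 3 for each of 4 groups. The first received medium conditioned by JMJD6-KO PyMT-41C cells (KO medium; replicates 1, 2 and 3). The second received medium of SCR PyMT-41C cells with CSH, which the labels call a blocker of the ANXA-1 receptor (replicates 1, 2 and 4), and the third medium of SCR PyMT-41C cells alone (SCR medium; replicates 1, 3 and 4). The fourth was kept in normal medium, RPMI with serum (replicates 2, 3 and 4). In the first 3 groups the conditioned medium was 50% of what the cells were kept in. The JMJD6 knockout was in the medium donors, and the measured RAW264.7 cells did not carry it. No group received CSH in normal medium, the labels name no vehicle, and whether KO and SCR cells are single clones is not stated. The labels do not state whether each replicate was its own culture. The p-values therefore reflect the spread among these arrays, which may be technical only.

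The ER folds secreted and membrane proteins, and a surplus of unfolded protein there is sensed by 3 membrane proteins. IRE1 (Ern1) removes an intron from the mRNA of Xbp1, which then encodes an active transcription factor; ATF6 is cut in the Golgi and frees a transcription factor; PERK (Eif2ak3) phosphorylates eIF2alpha and slows translation. The factors they release raise chaperones, disulfide enzymes and the machinery that returns misfolded proteins to the cytosol for degradation, and macrophages use the same branches when they are activated or secrete.

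Many of these genes carry an ER stress response element near their start. The element ERSE reads CCAAT, 9 bases of any kind, then CCACG, and is bound by NF-Y together with ATF6 or XBP1. The shorter ERSE-II reads ATTGG, any base, then CCACG. RefSeq promoter windows of GRCm38.p6, 250 bases before to 50 after the start, were found for 32 of the 38 genes and searched on both strands; Atf6, Derl1, Hspa13, Hyou1, Manf and Sec61a1 were not covered. ERSE was present in 10 of the 32 (31.2%), against 37 of 27025 genes with a window (0.137%). ERSE-II was present in 2 of the 32 (6.25%), against 12 of 27025 (0.0444%), and the 2 motifs share CCACG but no member held both. The UPRE letters TGACGTGG were found in the window of Sec24d alone among the 32 (3.12%), against 0.714% of all genes with a window, and CCACG by itself stood in 84.4% of members and 35.5% of all genes with a window.

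The motifs were not used to choose the set. Its genes were nonetheless picked as genes of this response, so the motif shares are not independent of membership. The members are also counted among all genes with a window. Among 98 other genes of the same pathways with a window, ERSE was present in 0 and ERSE-II in 1. The sites are printed for the 12 members that hold ERSE or ERSE-II, and 20 members with a window hold neither. Each site is written to end in CCACG, with the fixed letters in capitals. It is reversed where it lies on the strand opposite to the gene.
Hspa5: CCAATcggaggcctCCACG
Creld2: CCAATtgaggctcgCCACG
Dnajc3: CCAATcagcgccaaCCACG
Dnajb11: ATTGGcCCACG
Calr: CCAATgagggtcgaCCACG
Herpud1: ATTGGgCCACG
Syvn1: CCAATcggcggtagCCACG
Pdia6: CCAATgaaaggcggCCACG
Hsp90b1: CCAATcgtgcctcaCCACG
Hsp90b1: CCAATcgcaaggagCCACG
Canx: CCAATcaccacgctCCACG
Ero1b: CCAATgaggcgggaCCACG
Derl3: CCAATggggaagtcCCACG

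They were spread over the windows, as the map of stress elements shows, from bases 212 to 194 before the start to just after it. The Hspa5 site covered bases 65 to 47 before the start, that of Dnajc3 bases 105 to 87 and that of Creld2, on the opposite strand, bases 126 to 108. Hsp90b1 alone held more than one, at bases 212 to 194 and, on the opposite strand, at 107 to 89. The ERSE-II of Dnajb11 lay after the start, at bases 8 to 18.

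**Figure D1:**
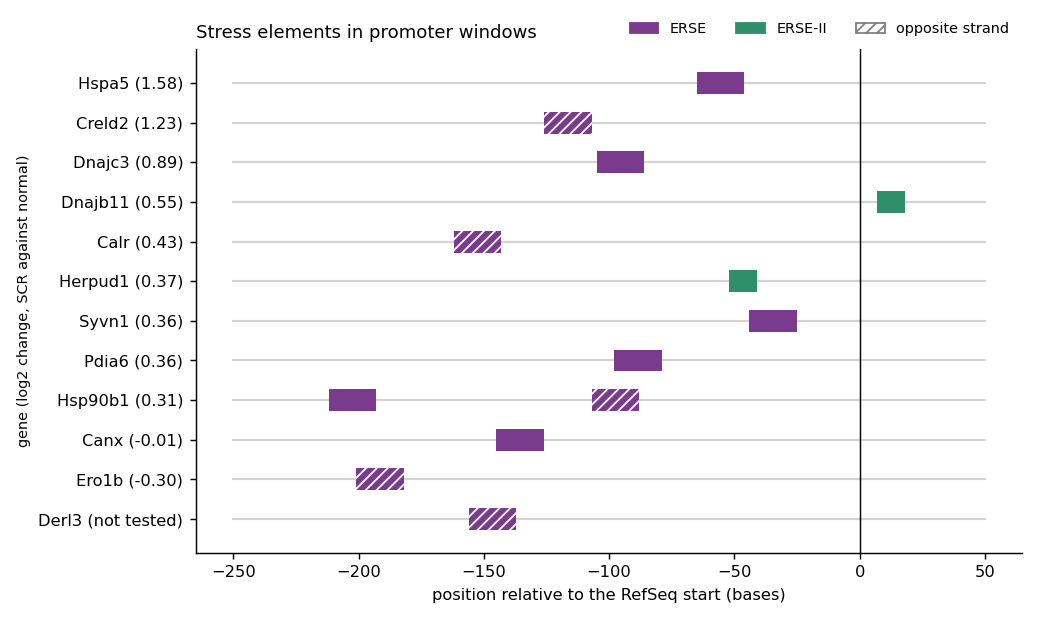
Positions of ERSE and ERSE-II in the promoter windows of the 12 genes that hold one, from 250 bases before to 50 bases after the RefSeq start (x axis, bases), ordered by the log2 change in SCR medium against normal medium, which stands in parentheses. 11 of the 12 genes hold their element before the start, and the change runs from 1.58 for Hspa5 to -0.30 for Ero1b.

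The 250 bases before the start are printed for the genes with an element there whose RNA differed most between SCR and normal medium, with the fixed letters of the element in capitals on whichever strand they lie.
Hspa5 promoter, chr2:34771840-34772089, plus strand: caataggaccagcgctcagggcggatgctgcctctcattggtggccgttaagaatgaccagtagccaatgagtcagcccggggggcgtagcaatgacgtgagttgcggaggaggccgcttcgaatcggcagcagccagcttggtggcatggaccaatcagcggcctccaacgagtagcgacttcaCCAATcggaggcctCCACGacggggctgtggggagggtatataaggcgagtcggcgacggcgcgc
Creld2 promoter, chr15:88819396-88819645, plus strand: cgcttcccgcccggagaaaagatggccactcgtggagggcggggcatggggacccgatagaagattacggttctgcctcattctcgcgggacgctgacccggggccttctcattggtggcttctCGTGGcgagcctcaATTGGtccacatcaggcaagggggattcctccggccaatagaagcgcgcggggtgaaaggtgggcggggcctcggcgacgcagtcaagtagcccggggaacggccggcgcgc
Dnajc3 promoter, chr14:118937682-118937931, plus strand: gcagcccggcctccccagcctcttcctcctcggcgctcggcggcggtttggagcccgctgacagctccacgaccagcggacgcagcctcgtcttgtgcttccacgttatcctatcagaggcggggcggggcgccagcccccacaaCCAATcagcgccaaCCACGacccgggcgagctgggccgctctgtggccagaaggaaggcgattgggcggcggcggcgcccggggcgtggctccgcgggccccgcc
Calr promoter, chr8:84846932-84847181, minus strand: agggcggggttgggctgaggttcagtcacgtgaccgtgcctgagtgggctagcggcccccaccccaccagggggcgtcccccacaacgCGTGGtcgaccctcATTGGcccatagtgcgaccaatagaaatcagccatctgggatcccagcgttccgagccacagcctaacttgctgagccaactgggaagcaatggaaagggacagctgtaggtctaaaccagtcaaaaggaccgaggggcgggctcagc
Herpud1 promoter, chr8:94386179-94386428, plus strand: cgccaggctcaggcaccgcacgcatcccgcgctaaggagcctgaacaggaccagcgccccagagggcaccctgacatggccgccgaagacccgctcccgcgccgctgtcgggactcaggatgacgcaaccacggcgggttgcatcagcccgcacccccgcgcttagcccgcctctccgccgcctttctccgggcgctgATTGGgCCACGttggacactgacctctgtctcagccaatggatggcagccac

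The values are log2 signals set to a common scale by RMA, so they show relative RNA levels, and the level of one probe set was not compared with that of another. A difference is the mean of the first-named group minus the mean of the second, with its standard error (SE). Adjusted p is that of limma's moderated test on all 12 arrays after Benjamini-Hochberg adjustment over the 18126 genes tested, and a gene was called at an adjusted p below 0.05. With 3 arrays a group, the number of arrays limits the precision. The macrophage label was checked first: 12 of 12 macrophage markers passed the filter, with Lyz2 at 17.78 ± 0.03 in SCR medium and 17.70 ± 0.05 in normal medium (SD, n = 3 each). Not all were steady: in SCR against normal medium 3 were called higher and 5 lower, where 19.3% and 15.8% of all genes tested were. Adgre1 averaged 9.79 in SCR medium against 11.24 in normal medium, and Csf1r 11.90 against 13.70. Passing the filter is a weak criterion, since Aif1 passed with means of 5.65 to 5.74 in the conditioned media. Of 14 epithelial markers, which could come from the cells that made the medium, 10 were below the filter. The other 4 averaged 5.47 to 5.72 in every group, beside array medians of 5.40 to 5.52, and none was called in any comparison. In bulk samples, fewer cells of a type and less RNA per cell cannot be told apart.

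Arrays of one group did not always lie together in these genes. Normal medium replicate 2 was above both others of its group in 24 of 35 members, against 37.9% of all genes tested, and SCR replicate 1 in 30 of 35, against 45.2%. SCR with CSH replicate 2 was below both others in 26 of 35, against 33.0%. The part of these arrays in the differences below was not tested beyond leaving them out, and the values without them stand beside the results they change.

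The comparison of SCR medium with normal medium gives the difference in RNA between cells kept in each. What the donor cells added to their medium and what they used up cannot be told apart. RNA for the main Hsp70 chaperone of the ER rose 2.98-fold, and with it rose the DnaJ cofactors, the retrotranslocation machinery and the sensor IRE1. An oxidase and a mannosidase-like factor fell. PERK was also called lower, by a small difference whose call was lost when single arrays were left out. Of the 35 members, 23 rose, where 19.3% of all genes tested did. A further 3 fell, where 15.8% of all genes did, and 9 were not called. The median change was 0.37 over the members and 0.02 over all genes tested. Members ran from -0.40 to 1.58. The same shares over all genes stand beside the counts by role and by promoter element below.

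Among the sensors, Ern1 gave log2 signals of 12.98, 12.74 and 12.93 in SCR medium, against 11.61, 11.98 and 11.71 in normal medium. All SCR arrays lay above all normal arrays, and Ern1 rose by 1.12 ± 0.10 (SE; adjusted p = 2.43e-06). Atf6 stood at 14.59, 14.37 and 14.51 in SCR medium, against 14.11, 14.23 and 14.15 in normal medium, a rise of 0.33 ± 0.06 (adjusted p = 0.000667) with no overlap. Eif2ak3 gave 8.45, 8.37 and 8.39 in SCR medium, against 8.69, 8.52 and 8.52 in normal medium. It fell by 0.17 on the log2 scale (SE 0.06), with an adjusted p of 0.0455, and without normal medium replicate 2 the fall was 0.12 and the adjusted p 0.197. That call was also lost when any of 7 other arrays was left out, with adjusted p up to 0.114.

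Xbp1, whose probe set does not separate the spliced from the unspliced mRNA, gave 13.29, 13.17 and 13.22 in SCR medium, against 13.27, 12.93 and 12.99 in normal medium. One normal array, replicate 2, lay among the SCR arrays, and the difference of 0.16 ± 0.08 was not called (adjusted p = 0.132). Without that array it was 0.27 and was called (adjusted p = 0.0059). Splicing of Xbp1 by IRE1 was not measured.

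Chaperones of the Hsp70 and Hsp90 families and their cofactors moved most as a group: 9 of the 10 measured rose, none fell, and their median change was 0.75. Hspa5 encodes BiP, the Hsp70 that binds unfolded chains and holds the sensors inactive. Its arrays read 14.51, 14.29 and 14.36 in SCR medium, against 13.07, 12.68 and 12.68 in normal medium. The lowest SCR array lay far above the highest normal array, and the rise was 1.58 ± 0.11 (adjusted p = 4.87e-07). The nucleotide exchange factor of BiP, Hyou1, gave 10.42, 10.16 and 10.29 in SCR medium, against 9.65, 9.39 and 9.34 in normal medium, a rise of 0.83 ± 0.10 (adjusted p = 3.64e-05).

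The DnaJ proteins deliver substrates to BiP. Dnajb9, which also represses IRE1, gave 13.23, 13.16 and 12.88 in SCR medium, against 11.90, 12.06 and 12.02 in normal medium. It rose by 1.10 ± 0.10 (adjusted p = 2.4e-06), with every SCR array above every normal array. Dnajc3 stood at 10.85, 10.62 and 10.47 in SCR medium, against 10.00, 9.65 and 9.63 in normal medium. The rise of 0.89 ± 0.12 (adjusted p = 9.64e-05) came with the same separation. Dnajc10, a disulfide reductase, rose by 0.67 ± 0.08 and Dnajb11 by 0.55 ± 0.08.

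Creld2, a secreted stress-induced protein with disulfide isomerase activity, gave 13.05, 12.77 and 12.78 in SCR medium, against 12.06, 11.38 and 11.48 in normal medium. It rose by 1.23 ± 0.15 (adjusted p = 4.82e-05), and by 1.44 without normal replicate 2. Hspa13 rose by 0.41 ± 0.06 and Hsp90b1, the Hsp90 of the ER, by 0.31 ± 0.06. Sdf2l1, a stress-induced partner of ER DnaJ proteins, gave 12.33, 12.22 and 12.02 in SCR medium, against 12.26, 11.38 and 11.42 in normal medium. One normal array thus lay among the SCR arrays, and the difference of 0.50 ± 0.19 was not called (adjusted p = 0.0577). Without normal replicate 2 it was 0.79 (adjusted p = 0.000342).

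Lectin chaperones and disulfide enzymes did not move as one: 2 of the 6 measured rose, 1 fell and the median change was 0.00. Calr, a soluble lectin chaperone of glycoproteins, rose by 0.43 ± 0.12 (adjusted p = 0.0115), and Pdia6, a protein disulfide isomerase, by 0.36 ± 0.09 (adjusted p = 0.00508). Their partners showed no call: the difference was -0.01 ± 0.05 for Canx, the membrane-bound lectin, 0.01 ± 0.05 for Pdia3, the isomerase that works with both lectins, and -0.09 ± 0.07 for P4hb. The 95% interval was -0.12 to 0.09 for Canx and -0.10 to 0.12 for Pdia3, far below the change of Hspa5. Ero1b, an oxidase that recharges protein disulfide isomerase, gave 8.80, 8.58 and 8.66 in SCR medium, against 9.09, 8.97 and 8.89 in normal medium. It fell by 0.30 on the log2 scale (SE 0.07, adjusted p = 0.00413) with no overlap of arrays. Its paralog Ero1a, outside the set, rose by 0.96 ± 0.12 (adjusted p = 3.44e-05).

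Genes of ER-associated degradation mostly rose, 7 of the 9 measured, with 1 fall and a median change of 0.37. Selenos and Derl1, which take part in moving substrates across the membrane to the segregase VCP, led them. Selenos gave 12.28, 12.19 and 12.19 in SCR medium, against 11.15, 11.11 and 10.95 in normal medium, a rise of 1.15 ± 0.09 (adjusted p = 1.17e-06). For Derl1 the arrays read 14.39, 14.19 and 14.22 in SCR medium, against 13.14, 13.23 and 13.21 in normal medium, a rise of 1.07 ± 0.07 (adjusted p = 4.09e-07). In both genes the spread within a group was a small part of the gap.

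The ubiquitin ligase complex rose unequally: Sel1l, its adaptor, by 0.72 ± 0.08 and Syvn1, the ligase HRD1, by 0.36 ± 0.06. Derl2 rose by 0.57 ± 0.07, Herpud1, a scaffold of the complex, by 0.37 ± 0.08, and the lectin Os9 by 0.31 ± 0.08. The EDEM proteins trim mannose to mark glycoproteins for disposal, and one of them was called. Edem2 gave 10.30, 10.26 and 10.38 in SCR medium, against 10.83, 10.64 and 10.66 in normal medium, and fell by 0.40 (SE 0.07, adjusted p = 0.000645) with no overlap. All arrays of Edem1 were also lower in SCR medium, 12.56 to 12.68, against 12.77 to 13.05 in normal medium, but its difference of -0.26 ± 0.10 was not called (adjusted p = 0.0698). Apart from leaving out arrays, it was called under 3 alternatives, with array weights (adjusted p = 0.0232), a stricter filter (0.0475) and the 6 arrays alone (0.0439). With single arrays left out, the adjusted p of Edem1 ran from 0.0352 to 0.267. The highest came without normal medium replicate 2, where the difference was -0.18. Edem3, outside the set, differed by 0.09 ± 0.07 (adjusted p = 0.419).

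For translocation, vesicle budding and UFM1, 3 of 6 rose and none fell, with a median of 0.24. Ufm1, a ubiquitin-like modifier attached to ribosomes at the ER, rose by 0.65 ± 0.09, Sec24d, a cargo adaptor of COPII, by 0.54 ± 0.10, and Ssr3, a subunit of the translocon-associated complex, by 0.33 ± 0.07. The channel subunits Sec61a1 and Sec61b differed by 0.15 ± 0.06 and -0.03 ± 0.06, and Ssr1 by -0.12 ± 0.06, with adjusted p from 0.101 to 0.761.

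**Figure D2:**
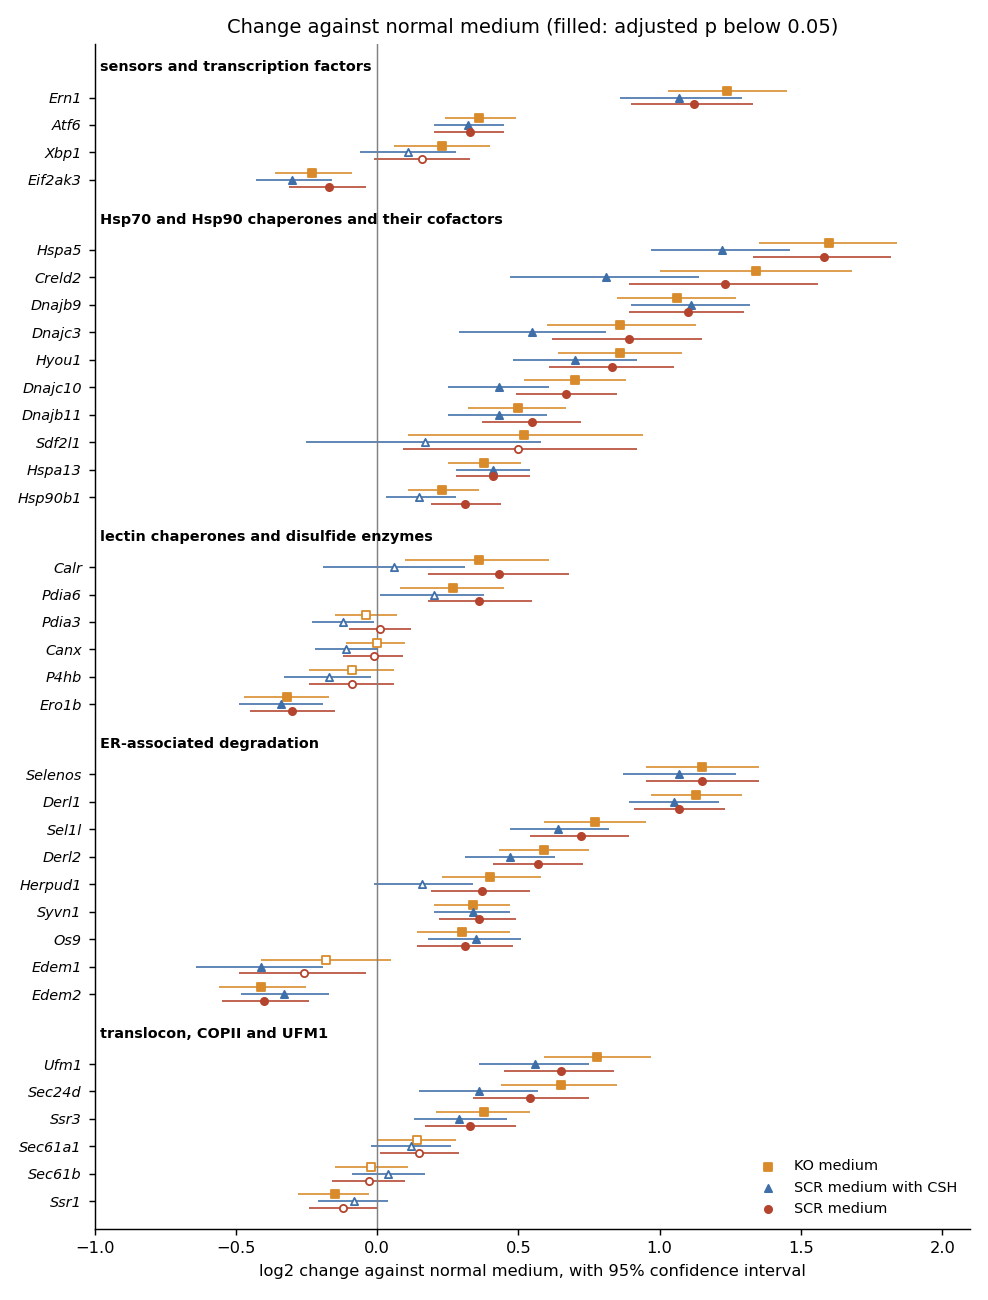
Log2 change of 35 genes against normal medium (x axis) in KO medium, SCR medium with CSH and SCR medium, with 95% confidence intervals, grouped by role; filled symbols were called. Hspa5 stands at 1.60, 1.22 and 1.58 in that order, and Eif2ak3, Ero1b and Edem2 lie left of 0 in all 3 media.

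Genes with an element in their window and those without covered much the same range. Of the 11 tested genes with ERSE or ERSE-II, 9 rose and 1 fell, with a median of 0.37 and a range of -0.30 to 1.58. Of the 19 tested genes with a window and neither element, 10 rose and 2 fell, with a median of 0.33 and a range of -0.40 to 1.15. Canx and Ero1b hold the letters and did not rise, and Selenos, Ern1 and Dnajb9 rose by over 1 without them in these windows.

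KO medium against normal medium gave nearly the same list. In it 25 of 35 members rose, where 21.4% of all genes did, and 4 fell, where 17.6% did, with a median of 0.38. Hspa5 read 14.43, 14.37 and 14.42 in KO medium and rose by 1.60 ± 0.11 (adjusted p = 2.61e-07), Creld2 rose by 1.34 ± 0.15 and Ern1 by 1.24 ± 0.10. Beyond the genes called in SCR medium, Xbp1 (0.23 ± 0.08, adjusted p = 0.033) and Sdf2l1 (0.52 ± 0.19, adjusted p = 0.045) were called higher and Ssr1 lower (-0.15 ± 0.06, adjusted p = 0.0469). Those 3 calls, and those of Calr, Pdia6 and Eif2ak3, were lost when single arrays were left out. The highest adjusted p was then 0.141 for Xbp1, 0.176 for Sdf2l1, 0.13 for Ssr1, 0.122 for Calr, 0.118 for Pdia6 and 0.0541 for Eif2ak3.

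With CSH in SCR medium the set was still raised over normal medium, by fewer calls: 19 of 35 rose, where 21.0% of all genes did, and 4 fell, where 14.9% did. The median was 0.32, and 0.24 under quantile normalization. Hspa5 rose by 1.22 ± 0.11, Dnajb9 by 1.11 ± 0.10, Selenos by 1.07 ± 0.09 and Ern1 by 1.07 ± 0.10. Hsp90b1 (0.15 ± 0.06), Calr (0.06 ± 0.12), Pdia6 (0.20 ± 0.09) and Herpud1 (0.16 ± 0.08), all called in SCR medium alone, were not called with CSH, and neither was Sdf2l1 (0.17 ± 0.19). With single arrays left out, 5417 to 6806 of the 18126 genes were called in either direction with CSH, and 5402 to 6363 in SCR medium alone. Without normal medium replicate 2, 23 of 35 rose with CSH and 25 in SCR medium alone. How many of all genes rose without that array is not given here, so a gain particular to the members cannot be told from a general one. Hsp90b1 (0.22, adjusted p = 0.0102), Pdia6 (0.30, adjusted p = 0.00833), Sdf2l1 (0.45, adjusted p = 0.0117) and Xbp1 (0.21, adjusted p = 0.0202) were then called with CSH, and Calr (0.22, adjusted p = 0.0978) and Herpud1 (0.20, adjusted p = 0.135) were not. Edem1 was called lower (-0.41 ± 0.10, adjusted p = 0.00759). These 3 comparisons share the normal medium arrays, so their likeness is no separate evidence.

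KO medium against SCR medium asks whether JMJD6 in the cells that made the medium mattered for the response in the receiving cells. No member was called, where 0.270% of all genes were. None reached an unadjusted p below 0.05 either, where 1078 of 18126 genes did. The differences ran from -0.10 to 0.13 with a median of 0.01. None of the 35 had arrays that did not overlap, where 9.37% of all genes did. The smallest p belonged to Ufm1, with 12.50, 12.30 and 12.39 in KO medium, against 12.43, 12.18 and 12.18 in SCR medium, a difference of 0.13 ± 0.09 (adjusted p = 0.988). Ern1 read 13.09, 13.06 and 12.87 in KO medium and differed by 0.12 ± 0.10, and Hsp90b1 differed by -0.08 ± 0.06, with 16.54, 16.63 and 16.47 in KO medium, against 16.64, 16.62 and 16.62 in SCR medium.

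The arrays of the 2 media overlapped in each of these genes. The 95% interval of the difference was -0.22 to 0.26 for Hspa5, -0.22 to 0.45 for Creld2 and -0.20 to 0.20 for Selenos. Differences inside these intervals remain possible with 3 arrays each. The intervals are not limits of detection, and a difference beyond them could also go uncalled. Hspa5 was not called at -0.36 in SCR medium with CSH against SCR medium (adjusted p = 0.685). With SCR replicate 1 left out, 7 of 35 members were higher without overlap, where 13.8% of all genes were.

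**Figure D3:**
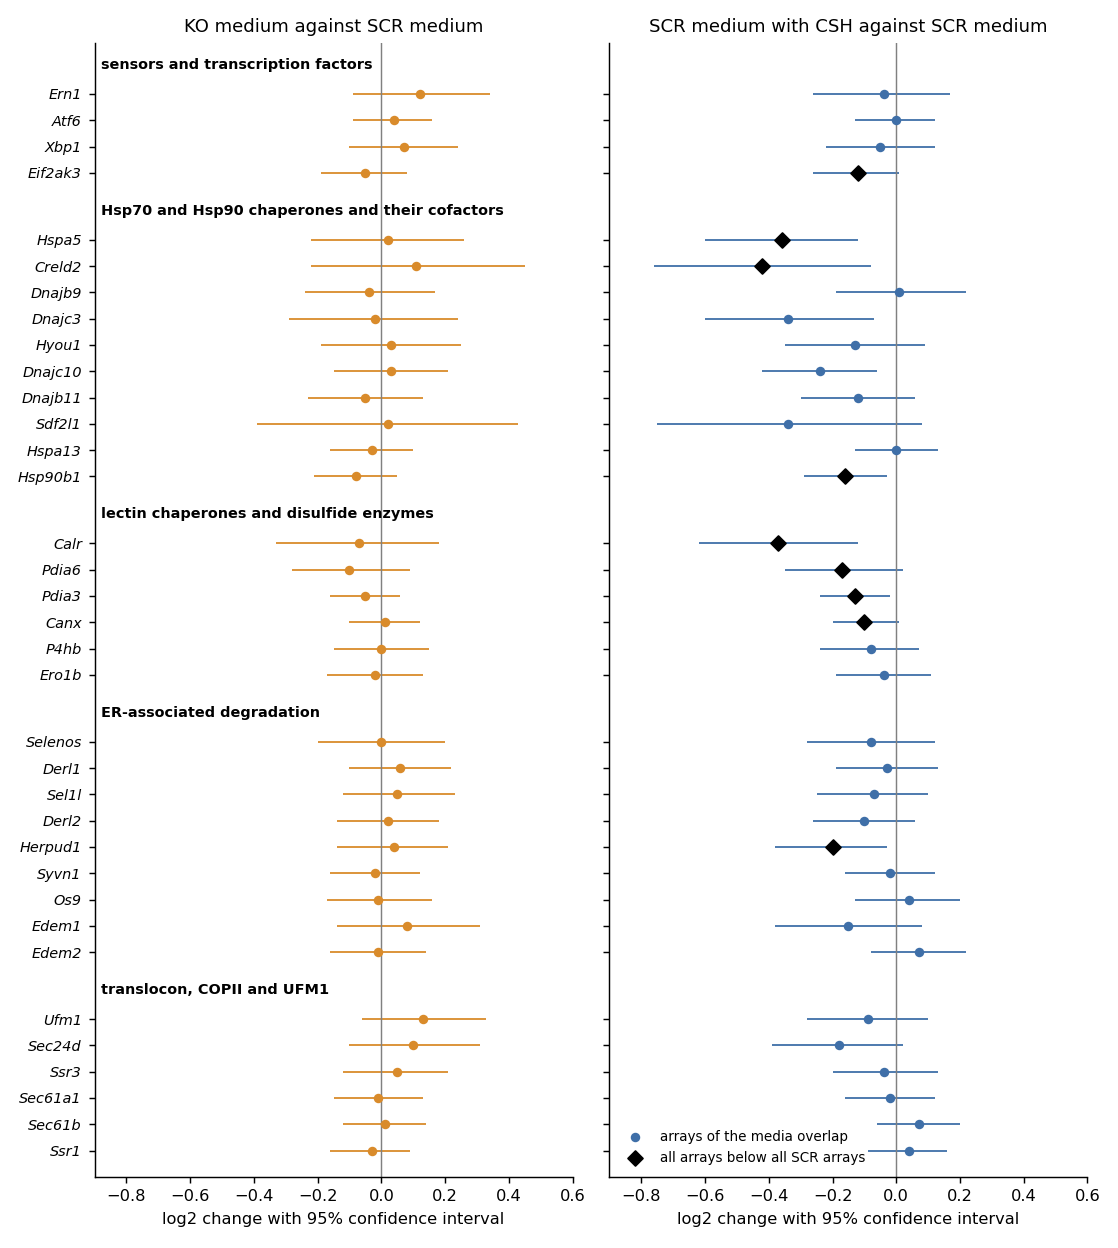
Log2 difference of 35 genes (x axis, with 95% confidence intervals) in KO medium against SCR medium (left) and in SCR medium with CSH against SCR medium (right), grouped by role; black diamonds mark genes whose 3 arrays all lie below all SCR arrays. The left panel spans -0.10 to 0.13 and has no diamond, and the right panel has 9 diamonds and spans -0.42 to 0.07.

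SCR medium with CSH against SCR medium asks what blocking the annexin A1 receptor did to the response to SCR medium. No member was called, where 0% of all genes were, and the smallest adjusted p among the members was 0.685. Of the 35 differences 29 were negative, where 7978 of 18126 were over all genes tested, with a median of -0.09 against 0.01 over all genes. An unadjusted p below 0.05 was reached by 8 members and by 1131 of the 18126 genes. In 9 members every CSH array lay below every SCR array (25.7% of 35), where 3.08% of all genes did, and in none did every array lie above, where 5.51% did. Left out in turn, the 6 arrays gave 9 to 15 such members, beside 5.11% to 11.3% of all genes. This alternative was chosen after the values were seen, and all of these counts rest on the same 3 SCR arrays as the KO comparison.

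Chaperones made up most of the 9: Hspa5, Hsp90b1, Creld2, Calr, Canx, Pdia3 and Pdia6, with Eif2ak3 and Herpud1 beside them. Hspa5 gave 14.11, 13.80 and 14.17 with CSH, against 14.51, 14.29 and 14.36 in SCR medium, a difference of -0.36 ± 0.11 (adjusted p = 0.685). For Calr the arrays read 13.98, 13.67 and 13.84 with CSH, against 14.27, 14.18 and 14.15 in SCR medium, and the difference was -0.37 ± 0.12 (adjusted p = 0.697). In both genes CSH replicate 2 was the lowest of the 6 arrays, and without an array the difference ran from -0.43 to -0.25 for Hspa5 and from -0.45 to -0.29 for Calr.

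Dnajc10 had the next smallest p, with 10.64, 10.37 and 10.53 with CSH, against 10.87, 10.62 and 10.78 in SCR medium. One pair of arrays overlapped, and the difference was -0.24 ± 0.08 (adjusted p = 0.723). Creld2 read 12.56, 12.23 and 12.55 with CSH, a difference of -0.42 ± 0.15 from SCR medium (adjusted p = 0.76). Dnajc3 differed by -0.34 ± 0.12, Herpud1 by -0.20 ± 0.08, Hsp90b1 by -0.16 ± 0.06 and Pdia3 by -0.13 ± 0.05.

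By role, all 6 lectin chaperones and disulfide enzymes had a negative difference, from -0.37 to -0.04. Among the Hsp70 and Hsp90 chaperones and cofactors 8 of 10 did, with a median of -0.20. The members that rose most in SCR medium after Hspa5 and Creld2 lay near 0: Selenos at -0.08 ± 0.09, Ern1 at -0.04 ± 0.10, Dnajb9 at 0.01 ± 0.10 and Derl1 at -0.03 ± 0.07. Whether the first genes differ from the second in their response to CSH was not tested.

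KO medium against SCR medium with CSH sets the 2 interventions side by side. No member was called, where 1.90% of all genes were. An unadjusted p below 0.05 was reached by 10 of 35 members and by 2851 of the 18126 genes tested. In 12 of 35 every KO array lay above every CSH array (34.3%), where 9.72% of all genes did, and in none did every array lie below, where 12.1% did. Leaving out 1 array gave 12 to 19, beside 12.2% to 16.5% of all genes. Creld2 read 13.09, 12.96 and 12.89 in KO medium, against 12.56, 12.23 and 12.55 with CSH, a difference of 0.53 ± 0.15 (adjusted p = 0.114). It was called without normal medium replicate 2, which enters only the common estimate of spread (adjusted p = 0.0269).

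For Hspa5 the KO arrays, 14.43, 14.37 and 14.42, lay above the CSH arrays, 14.11, 13.80 and 14.17, by 0.38 ± 0.11 (adjusted p = 0.124). Dnajc10 read 10.76, 10.76 and 10.84 in KO medium, against 10.64, 10.37 and 10.53 with CSH, and differed by 0.27 ± 0.08 (adjusted p = 0.13). Both genes separated without overlap and neither was called. The other 9 members so separated were Xbp1, Dnajc3, Sdf2l1, Calr, Canx, Sel1l, Herpud1, Sec24d and Ufm1, with differences of 0.11 to 0.36.

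Beyond the set, 110 other genes of the same pathways were tested. In SCR medium against normal medium 59 rose and 12 fell, with a median of 0.24. Over all genes tested 19.3% rose and 15.8% fell, and these shares also stand beside the lists below. The strongest were in the list of other stress sensors and genes placed in the PERK arm, where 12 of 19 rose and 2 fell. Ddit3, the stress transcription factor CHOP, gave 15.89, 15.50 and 15.83 in SCR medium, against 12.84, 13.47 and 12.79 in normal medium, a rise of 2.71 ± 0.21 (adjusted p = 7.72e-07). A second Ddit3 probe set read 15.40, 15.07 and 15.39 in SCR medium, against 12.86, 13.42 and 12.96 in normal medium. Trib3, a pseudokinase induced by CHOP, rose by 2.41 ± 0.18. Ppp1r15a, a phosphatase subunit that undoes the phosphorylation of eIF2alpha, rose by 2.17 ± 0.15, and Wfs1, an ER membrane protein, by 1.49 ± 0.11.

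Ddit3, Trib3 and Ppp1r15a rose further than any member. In the same arrays Eif2ak3 itself was lower by 0.17, a call that was lost when single arrays were left out. Atf4, the factor translated after eIF2alpha phosphorylation, rose by 0.72 ± 0.09. Atf3, often induced with it, fell by 0.66 (SE 0.09, adjusted p = 5.63e-05). Phosphorylation of eIF2alpha and the activity of PERK were not measured, and whether PERK brought about these rises was not tested. With CSH against SCR medium the differences were -0.04 for Ddit3, 0.02 for Trib3, 0.05 for Ppp1r15a and -0.01 for Wfs1, with adjusted p of 0.985 and above.

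In ER-associated degradation 12 of 18 further genes rose and none fell. Erlin1 and Erlin2, scaffolds that hold substrates at the membrane, rose by 1.02 ± 0.08 and 0.88 ± 0.08, the ubiquitin ligase Rnf185 by 0.79 ± 0.09 and Ufd1, a cofactor of VCP, by 0.61 ± 0.07. Translocation, signal peptidase and oligosaccharyltransferase genes rose in 15 of 24 and fell in 3. Ssr2 rose by 0.71 ± 0.07, Spcs2, a signal peptidase subunit, by 0.70 ± 0.06, and Ostc and Krtcap2, subunits of the oligosaccharyltransferase, by 0.70 ± 0.09 and 0.63 ± 0.06.

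For COPII and retrieval to the ER 8 of 19 rose and 1 fell, with Sar1a, the GTPase that starts the coat, at 0.79 ± 0.08, Sec23b at 0.78 ± 0.08, Sec23a at 0.75 ± 0.09 and the cargo receptor Lman1 at 0.46 ± 0.06. Other folding and disulfide genes split, with 10 of 25 higher and 4 lower: Tmx3 rose by 0.88 ± 0.07 and Txndc12 by 0.57 ± 0.06, while Dnajb14 fell by 1.30 (SE 0.08) and Erp29 by 0.78 (SE 0.09). Of 5 further UFM1 genes 2 rose, Ddrgk1 by 0.39 ± 0.08 and Ufc1 by 0.19 ± 0.07, and 2 fell, Ufsp2 by 0.26 (SE 0.08) and Cdk5rap3 by 0.18 (SE 0.06). Macrophage markers went both ways in the same comparison, 3 of 12 higher and 5 lower, among them Cd53 at 1.18 ± 0.05 and Csf1r, which fell by 1.79 (SE 0.16). For each of these lists the shares over all genes tested were 19.3% higher and 15.8% lower.

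**Figure D4:**
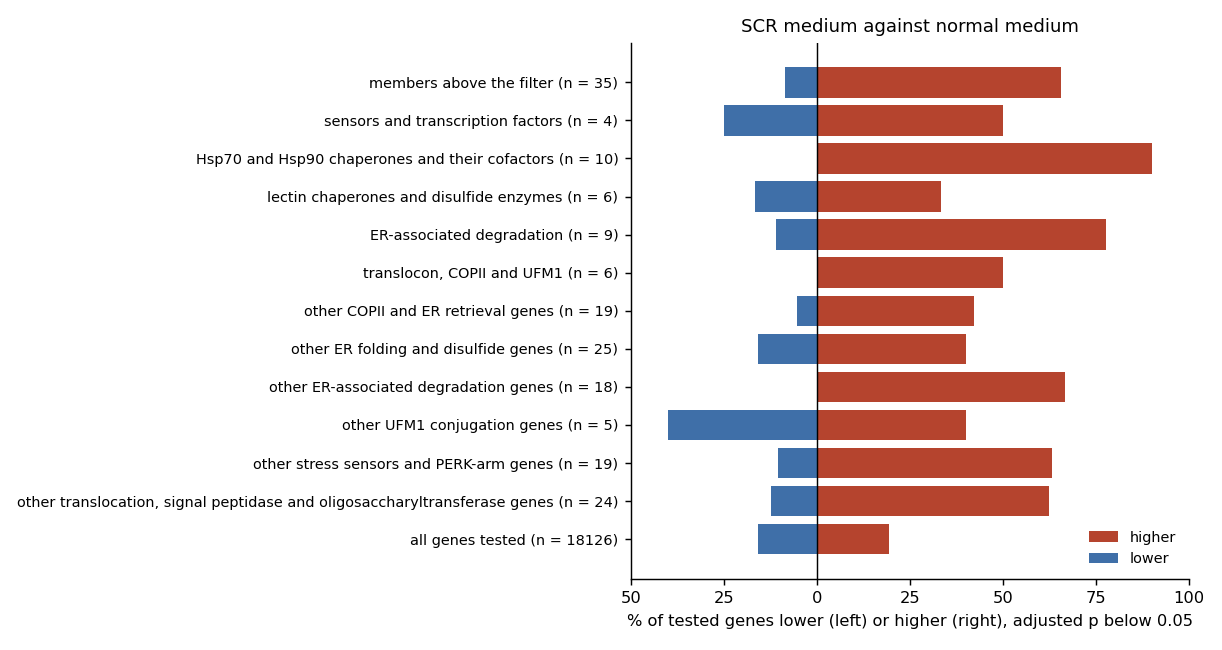
Percentage of tested genes that were called higher (right) or lower (left) in SCR medium against normal medium, for the members above the filter, their 5 roles, 6 further lists of the same pathways and all genes tested, with the number tested in parentheses. The Hsp70 and Hsp90 group has 9 of 10 higher, while over all genes 19.3% were higher and 15.8% lower.

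Against normal medium 64 of these 110 genes rose and 8 fell in KO medium, where 21.4% and 17.6% of all genes did. With CSH 58 rose and 11 fell, where 21.0% and 14.9% of all genes did. Between the conditioned media they showed 1 call, Ngly1, the deglycosylase that acts on retrotranslocated proteins, with 0.35 ± 0.07 in KO medium against SCR medium with CSH (adjusted p = 0.0302). In that comparison 1.90% of all genes were called. Between KO and SCR medium no gene of the 110 was called, where 0.270% of all genes were, and the smallest p was that of Ppp1r15a, at 0.53 ± 0.15 (adjusted p = 0.343). With CSH against SCR medium none was called either, where 0% of all genes were. There 53 differences were positive and 55 negative, and the median was 0.00, beside -0.09 for the members.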

How the data were processed

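RNA from RAW264.7 cells was measured on 12 Affymetrix arrays. The deposited values are log2 signals that the authors made with RMA in Affymetrix Expression Console on build mm10, per the submitters' processing notes. No version is stated, and a probe filter or batch step is not given in the sources used here. RMA sets all arrays on a common scale, which hides a change in total RNA and compresses changes of dim genes. The table holds 65528 probe sets. Of these, 31040 had 1 gene symbol in the platform table, updated through the RefSeq table of GRCm38.p6, 1456 had several and 33032 had none listed. Where 442 genes had several probe sets the highest mean stood for the gene; each valued member had 1. Of 30481 named genes, 18126 passed the filter.

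The fits used limma 3.58.1 under R 4.3.3 (group means, all 12 arrays, trended eBayes, 8 residual degrees of freedom, median residual SD 0.0964), after a check on simulated data. No pair of the 66 was identical. The members and lists, and the tests, were chosen with earlier results of these data known. By the naming rule, every array is given for the sensors, the 8 largest changes and the falls in SCR against normal medium, and members called, or with the 3 smallest p, in the comparisons between conditioned media; for each other list, up to 4 genes with the smallest p there. Ero1a, Atf4, Atf3, Lyz2, Cd53, Csf1r, Adgre1, Aif1 and Ngly1 were named after their values were seen, as were the members with no overlap of arrays. Same-numbered arrays of different groups correlated at -0.07 to 0.29 (median 0.07) in their deviations from group means. Arrays with different numbers correlated at -0.23 to 0.21 (median -0.04). The numbers were not taken as pairs. Alternatives were other filters, quantile normalization, median centring, no trend, array weights, a replicate block, single arrays left out, a fit to a comparison's own 6 arrays, and other thresholds. Promoter sequences are RefSeq's, of GRCm38.p6. Figures were drawn with matplotlib 3.10.9.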

Additional observations from a re-analysis of the deposited data

How the results depend on the processing

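The counts of members called kept their size under all alternatives except these. Asking for a fold of at least 1.5 as well left 11 members in SCR medium, 13 in KO medium and 8 in SCR medium with CSH, each against normal medium. Of all 18126 genes it left 1678, 2079 and 1629, in that order. Array weights gave 1 member, Creld2, in KO medium against SCR medium with CSH. Leaving out single arrays gave 24 to 28 members in KO medium, 23 to 27 in SCR medium with CSH and 25 to 27 in SCR medium against normal medium, 0 to 1 in KO medium against SCR medium with CSH, and 0 in the other comparisons. Over all genes it gave 6153 to 7395 in KO medium and 5417 to 6806 in SCR medium with CSH against normal medium. In SCR medium against normal medium it gave 5402 to 6363. Among the results recomputed under every alternative, signs turned for uncalled values near 0 in SCR medium against normal medium: Canx, 0.03 without normal medium replicate 2 (range over single arrays -0.04 to 0.03), Sec61b, 0.01 without that array or SCR replicate 3 (range -0.07 to 0.01), and Pdia3 (range -0.02 to 0.05), -0.01 under quantile normalization, median centring, array weights or without normal replicate 3, and -0.02 without normal replicate 4 or SCR replicate 1. Without normal medium replicate 3, Calr turned to -0.07 in SCR medium with CSH against normal medium; without replicate 2, Sec61b turned to 0.02 in KO medium against normal medium. The cause was not tested.

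The array weights were uneven, with 6.13 for SCR replicate 4, 0.53 for SCR replicate 1 and 0.39 for SCR replicate 3. With these weights the mean of SCR medium rested mostly on 1 array. Over all genes, KO against SCR medium gave 49 calls, 376 with array weights and 20 to 50 with an array left out. CSH gave 0 against SCR medium, with 1131 at an unadjusted p below 0.05, and 79 with array weights. KO medium against SCR medium with CSH gave 344 calls, 154 with median centring, 653 with array weights and 107 to 373 with an array left out. With the replicate number as a block it gave 214, and the block ended the calls of Eif2ak3 in SCR medium (adjusted p = 0.0509) and of Sdf2l1 (0.107), Calr (0.0653), Pdia6 (0.0712) and Ssr1 (0.0532) in KO medium, all against normal medium; shared numbers are at most 2 a comparison. In SCR medium against normal medium, Eif2ak3 was not called without the filter (adjusted p = 0.0728), with median centring (0.0963) or on the 6 arrays alone (0.112), while Sdf2l1 was called with a stricter filter (0.0346) or quantile normalization (0.0399) and Ssr1 with quantile normalization (0.0255) or array weights (0.0189). In KO medium against normal medium the other alternatives ended these calls: Xbp1 without the filter (0.0537), with quantile normalization (0.0877), with median centring (0.0713) and on the 6 arrays alone (0.0747), and Calr (0.0517 and 0.0572) and Pdia6 (0.075 and 0.0511) with quantile normalization and on the 6 arrays. Sdf2l1 was lost without the filter (0.0794) and on the 6 arrays (0.0858), and Ssr1 without the filter (0.0635), with median centring (0.15) and on the 6 arrays (0.0554). The number of arrays limits small differences.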
